A study of Mus musculus with 4 samples.

Results

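Spots assigned to Glutamatergic_L5_PT_RSP_ACA were examined in 4 spatial transcriptomics sections of mouse brain. A spot counted as holding the type when the share deposited for it was above 0, which was the case in 2543 of 14809 spots. The sections were cut sagittally from C57 wild-type mice, 1 for each group: a control given saline, a resilient and a susceptible mouse, each given saline after chronic social defeat stress, and a susceptible mouse that received 10 mg/kg ketamine by the intraperitoneal route. Brains were taken 7 days after ketamine, resilience and susceptibility had been called by a social interaction test, and the age of the mice is not given in the sources used here. Chronic social defeat stress exposes a mouse repeatedly to an aggressor, and whether the control was handled in the same setting without defeat is not stated. With 1 section per group there is no replicate of any group, so no difference below carries a test across mice, and mouse, slide and plane of section cannot be told apart from the treatment.

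Pyramidal-tract neurons are the large glutamatergic neurons of cortical layer 5 whose axons leave the cortex for the midbrain, brainstem and spinal cord, while intratelencephalic (IT) neurons of the same layer project within the forebrain and corticothalamic (CT) neurons of layer 6 project to the thalamus. The RSP and ACA of the name stand for the retrosplenial and anterior cingulate areas, midline cortex that takes part in spatial memory, pain affect and social behaviour. Parvalbumin (Pvalb) interneurons are fast-spiking GABAergic cells that inhibit the cell bodies of pyramidal neurons and are abundant in layer 5 of many cortical areas. The files used here hold cell type shares and no gene values, so no marker gene of the type could be examined. The label was set beside the clusters and the other types of its spots instead.

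Each spot is a small region that can hold several cells, and its deposited shares over 67 cell types and an unknown column sum to 1. They are the authors' estimates and not counts of cells. No share between 0 and 10.1% was found in any section, and the smallest kept share of L5_PT_RSP_ACA was 12.3% in the control and between 10.1% and 11.4% elsewhere, so a spot listed at 0 may hold a smaller amount. The glutamatergic headers carry names of cortical and hippocampal layers and areas, apart from CR (Cajal-Retzius cells) and V3d. The meaning of V3d is given by no source used here. No header names a neuron of the thalamus, midbrain, hindbrain or cerebellum. The sections had 3733, 4156, 3443 and 3477 spots in the order control, resilient, susceptible and ketamine-treated, which sets the counting precision; sequencing depth is unknown. Of the spot barcodes, 2503 occurred in all 4 sections.

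L5_PT_RSP_ACA was among the most widely held types. It was present in 491 control spots, or 13.2% (95% exact interval 12.1 to 14.3), in 901 resilient spots, or 21.7% (20.4 to 23.0), in 547 susceptible spots, or 15.9% (14.7 to 17.2), and in 604 ketamine-treated spots, or 17.4% (16.1 to 18.7). The intervals, which are Clopper-Pearson intervals and cover counting error only, placed the resilient section above and the control below the others. The other 2 sections had overlapping intervals. By number of spots it ranked first of 47 glutamatergic types in the resilient, susceptible and ketamine-treated sections and second in the control. It made up 48.7% of the share of the 7 types with a name starting with L5 in the control and between 56.9% and 58.7% in the other sections.

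The largest part of the spots holding the type lay in cluster 2, which held 60.9% of the control, 46.95% of the resilient, 67.3% of the susceptible and 56.1% of the ketamine-treated ones. Cluster 1 came next in the control (18.9%), resilient (23.97%) and susceptible section (11.2%), and cluster 9 in the ketamine-treated section (19.5%). The type had the highest mean share of any type in cluster 2 of each section. In that cluster it was followed by the corticothalamic type L6_CT_CTX and the intratelencephalic type L5_IT_CTX. Of the cluster 2 spots, 41.8% held it in the control (interval 38.1 to 45.5), 55.2% in the resilient (51.6 to 58.8), 48.4% in the susceptible (44.8 to 51.97) and 51.1% in the ketamine-treated section (47.3 to 55.0). In cluster 9, where astrocytes, L2_IT_RSP_ACA and L5_IT_CTX were the other leading types, the values were 28.2% (19.7 to 37.9), 33.0% (26.5 to 39.98), 37.0% (26.0 to 49.1) and 43.9% (37.9 to 50.02) in the same order. In cluster 6, led by the superficial types L2_IT_RSP_ACA and L2_3_IT_CTX, the type was held by between 3.83% of control and 6.22% of ketamine-treated spots. The type was thus frequent in cluster 2, with its deep-layer types, and in cluster 9, and rare in cluster 6.

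**Figure D1:**
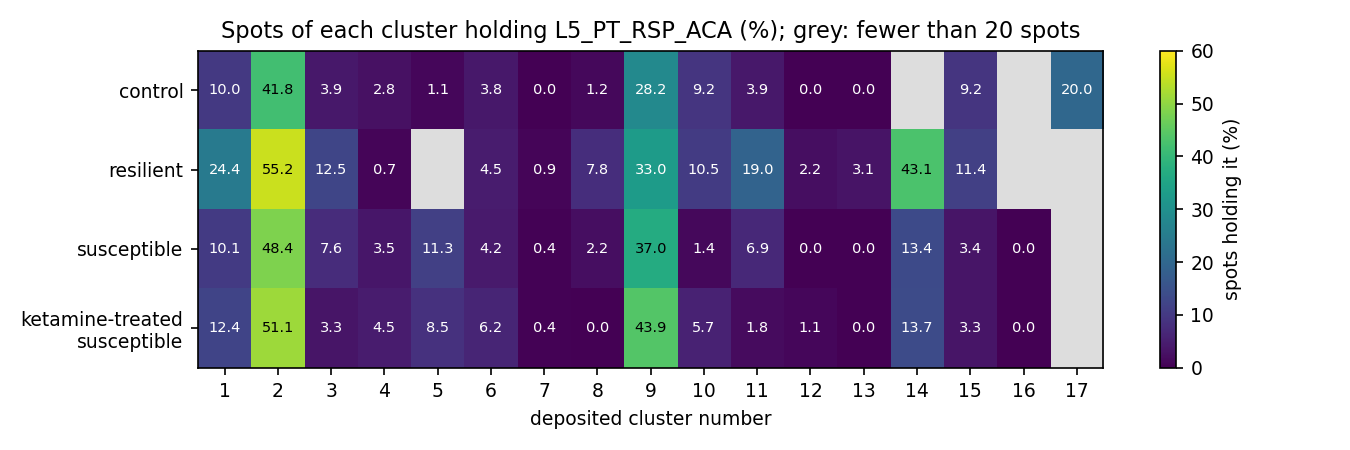
Percentage of the spots of each deposited cluster (columns) that held L5_PT_RSP_ACA in each section (rows), with cells of fewer than 20 spots in grey. Cluster 2 (41.8% to 55.2%) and cluster 9 (28.2% to 43.9%) had the highest rates among clusters measured in all 4 sections, and the resilient section stood above the others in clusters 1, 3, 8 and 11, and in cluster 14 above the susceptible and ketamine-treated sections.

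Clusters 2, 6 and 9 are called the cortical clusters below, after the cortical types among their leading types. L5_PT_RSP_ACA is itself among those in clusters 2 and 9. Cluster 14, led by L2_IT_ENTl, was counted outside, so outside these clusters need not mean outside cortex. Clusters 2, 6 and 9 contained 69.0% of the control spots holding the type (interval 64.7 to 73.1) and 55.6% of the resilient (52.3 to 58.9). They contained 73.9% of the susceptible (69.96 to 77.5) and 77.8% of the ketamine-treated ones (74.3 to 81.1). These clusters made up 29.6% to 32.8% of all spots. A spot in these clusters held the type 5.30 times as often as a spot elsewhere in the control, 2.98 times in the resilient, 6.47 times in the susceptible and 7.18 times in the ketamine-treated section. Since clusters and shares come from the same spots, these folds describe the clusters and are not a test. Of 35 types found in at least 20 spots of every section, 9 (25.7%) were at least 1.5-fold more frequent in clusters 2, 6 and 9 in all 4 sections, L5_PT_RSP_ACA among them. By the mean part of its spots in these clusters over the 4 sections, L5_PT_RSP_ACA ranked 8 of the 35. L6_CT_CTX (96.1% to 98.6%) and L5_IT_CTX (94.4% to 98.9%) ranked first, L6b_CTX had a mean of 85.8% and L5_IT_TPE_ENT of 82.4%, while L6b_CT_ENT (63.3%) and L5_PPP (14.8%) lay below the 69.1% of L5_PT_RSP_ACA.

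The sections differed in one way inside the cortical clusters and in another outside them. Within clusters 2, 6 and 9 the control was lowest, at 30.7% of spots (27.9 to 33.5), against 40.7% in the resilient (37.9 to 43.5), 38.6% in the susceptible (35.6 to 41.6) and 41.2% in the ketamine-treated section (38.3 to 44.1). The control interval did not meet the other 3, which overlapped with each other. In cluster 2 alone it met that of the susceptible section. Cluster 6, where the type was rare, made up 287 of these 1106 control spots. It made up 265 of 1231 in the resilient, 213 of 1047 in the susceptible and 209 of 1141 in the ketamine-treated section. The part of this mix in the difference was not tested. Over clusters 2, 6 and 9, the control was exceeded 1.33-fold by the resilient section (44.4% of types passed a fold of 1.5 in this comparison), 1.26-fold by the susceptible (40%) and 1.34-fold by the ketamine-treated section (6.67%). The ratio to the resilient section was 0.948 in the susceptible (52.9% of types past 1.5-fold) and 1.01 in the ketamine-treated section (44.4%), and ketamine-treated over susceptible was 1.07 (26.7%). Outside these clusters the resilient section stood alone, at 13.7% (12.4 to 14.97), against 5.79% in the control (4.92 to 6.75), 5.97% in the susceptible (5.05 to 6.99) and 5.74% in the ketamine-treated section (4.83 to 6.76). There, the resilient section had 2.36 times the control rate, and the susceptible and ketamine-treated sections had 0.436 and 0.419 times the resilient rate; 50%, 38.9% and 47.4% of types passed 1.5-fold in these comparisons. The intervals of the control, susceptible and ketamine-treated sections overlapped, with ratios of 1.03 for susceptible over control, 0.991 for ketamine-treated over control and 0.961 for ketamine-treated over susceptible, where 44.4%, 27.8% and 15.8% of types passed. These like rates joined opposite parts. For susceptible minus control, rates within clusters gave 1.05 percentage points of all spots and cluster proportions -0.973. For ketamine-treated minus control the parts were 0.997 and -1.22. Cluster 5 gave 0.991 and 0.779 of the points within clusters.

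**Figure D2:**
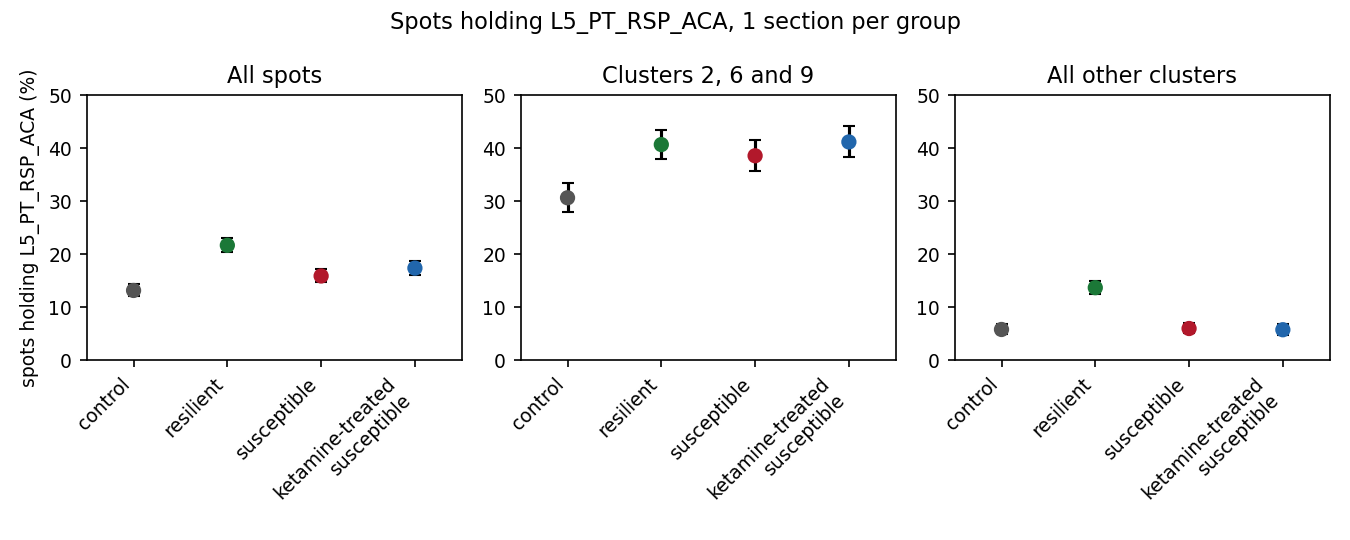
Percentage of spots holding L5_PT_RSP_ACA in each section, over all spots, over clusters 2, 6 and 9 and over all other clusters, with exact 95% intervals for counting error. The control (30.7%) is lowest in clusters 2, 6 and 9, and the resilient section (13.7%) is highest in the other clusters, where the remaining sections lie between 5.74% and 5.97%.

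Over the whole sections, the resilient section had 1.65 times the control rate of spots holding the type, the 1 pair of sections past a fold of 1.5. Of the 23 types with a mean share of at least 1% in either section, 34.8% passed this fold between resilient and control, so a fold of this size was common among the types. The ratio to the control was 1.21 in the susceptible section, where 33.3% of the types compared passed 1.5-fold, and 1.32 in the ketamine-treated section, where 22.7% did. Against the resilient section it was 0.733 in the susceptible (30.4% of types past 1.5-fold) and 0.801 in the ketamine-treated section (34.8%). The ketamine-treated section had 1.09 times the susceptible rate, in a pair where 14.3% of types passed. Over the 24 types with a mean share of at least 1% in any section, the highest section had a median of 1.64 times the spots of the lowest, and for L5_PT_RSP_ACA this was 1.65 times. Its spread between sections ranked 11 among these 24.

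Between the resilient section and the others, and between the control and the others, most of the difference lay in rates within clusters. Of the 8.53 percentage points between the resilient and the control section, 7.90 were a difference of rates within clusters and 0.628 came from cluster proportions. The rate was higher in the resilient section in 12 of the 13 clusters with at least 20 spots in both. Of the difference within clusters, 3.32 points came from cluster 1, 2.53 from cluster 2, 0.768 from cluster 3, 0.639 from cluster 11, 0.308 from cluster 8 and 0.183 from cluster 9. Cluster sizes gave 0.692 points in cluster 14 and 0.628 in cluster 9 and took away 0.618 in cluster 1, where the control had a larger part of its spots. Against the susceptible section the resilient section was higher in 12 of 14 such clusters, and against the ketamine-treated section in 11 of 14. The counts for the resilient section include clusters 7, 12 and 13, where no section had more than 2 spots holding the type. The ketamine-treated section had a higher rate than the susceptible section in 9 clusters and a lower rate in 5. In clusters 7 and 15 both had 1 spot with the type, and in cluster 12 they had 1 and 0. Of the 1.48 points between these sections, 0.888 lay within clusters and 0.596 in cluster sizes. By mean share this pair had 0.312 points from cluster sizes and -0.165 within clusters.

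Outside the cortical clusters, cluster 1 held the most spots with the type. It was led by Oligo (oligodendrocytes, the myelinating cells), astrocytes and L2_IT_RSPv, followed by Pvalb. L5_PT_RSP_ACA was held by 10.01% of its spots in the control (8.16 to 12.1), 24.4% in the resilient (21.6 to 27.4), 10.1% in the susceptible (7.80 to 12.8) and 12.4% in the ketamine-treated section (9.62 to 15.6). The resilient section was also highest in cluster 11, which has the same leading types, at 18.99% against 1.78% to 6.94%, and in cluster 14, led by L2_IT_ENTl, at 43.1% of 72 spots against 13.4% of 67 and 13.7% of 95 in the susceptible and ketamine-treated sections; the control had 4 spots in cluster 14, 2 of them with the type, too few to place it. Cluster 5, led by astrocytes and L2_3_IT_ENTl, ran differently: 1.08% of its 465 control spots held the type (0.35 to 2.49), against 11.3% of susceptible (7.58 to 16.0) and 8.53% of ketamine-treated spots (5.60 to 12.3), and the resilient section had 2 spots there. In the oligodendrocyte-led cluster 7 the type was held by 0 of 249 control spots, which allows a share of up to 1.2% if 3 spots are taken as the limit of a count of 0, and by at most 2 spots of any other section.

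Within the spots that held it, the type was usually a minor part. Its share of such a spot had a median of 29.1% in the control (quartiles 22.7 and 39.9), 30.1% in the resilient (22.6 and 42.1), 34.6% in the susceptible (26.3 and 46.7) and 31.4% in the ketamine-treated section (24.5 and 43.7). It was the largest share in 24.03% of its control spots (20.3 to 28.1), 26.5% of its resilient (23.7 to 29.5), 32.2% of its susceptible (28.3 to 36.3) and 28.5% of its ketamine-treated spots (24.9 to 32.3). Shares under 20% were found in 14.5% and 14.98% of its control and resilient spots but in 6.58% and 9.11% of its susceptible and ketamine-treated ones. The mean number of types kept in any spot also differed, at 2.25, 2.33, 2.10 and 2.17 in the order control, resilient, susceptible and ketamine-treated; its part in these differences was not tested. Spots that kept more types held it more often: of spots with 4 types, 35.7% held it in the control and 49.8%, 42.4% and 41.8% in the resilient, susceptible and ketamine-treated sections, against 19.1%, 29.7%, 26.6% and 30.5% of spots with 3 types. A spot that keeps more types has more places for any type, and other types were not compared here. The type filled the whole spot in 19, 51, 31 and 32 spots, and where it shared a spot its share did not exceed 76.5%.

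**Figure D3:**
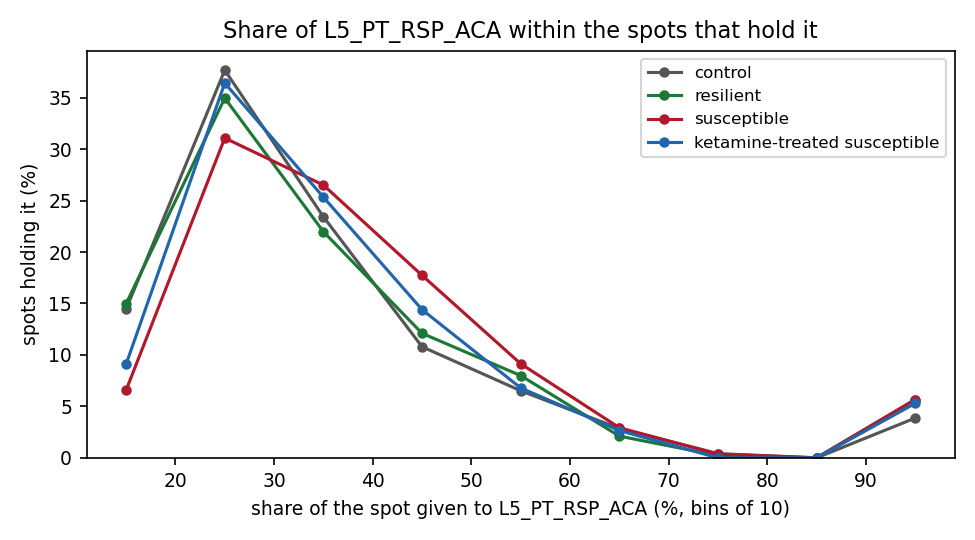
Distribution of the share of L5_PT_RSP_ACA over the spots that hold it, in bins of 10 percentage points, for each section. Most spots lie between 20% and 40%, the susceptible section has the fewest under 20% (6.58%), and the last bin consists of spots given wholly to the type.

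In the control, the type led a spot almost wholly within the cortical clusters, where 94.9% of its led spots lay; the other values were 70.7% (resilient), 82.4% (susceptible) and 77.3% (ketamine-treated). Outside the cortical clusters it led 3.95% of its control spots, 17.5% of its resilient, 21.7% of its susceptible and 29.1% of its ketamine-treated spots, while inside them the 4 values were 33.0%, 33.7%, 35.9% and 28.3%. Its median share outside the cortical clusters was lower in the control (24.8%) and resilient section (26.8%) than in the susceptible (32.3%) and ketamine-treated section (33.3%).

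Spots that held the type kept more types than others, with means of 2.96, 3.01, 2.78 and 2.89 against 2.20, 2.18, 2.02 and 2.07 in spots with any other type. Choosing spots by any type they hold favours spots with more types, so a gap in this direction is partly built in. Other types were not compared. Another glutamatergic type was present in 76.6% of its control, 69.8% of its resilient, 72.9% of its susceptible and 79.3% of its ketamine-treated spots. A GABAergic type was present in 26.7% to 35.1% and a non-neuronal type in 35.6% to 43.2% of them. Over all sections its spots showed 573 different sets of accompanying types. The most frequent was L5_IT_CTX by itself, with 145 spots, followed by no other type (133), L4_5_IT_TPE_ENT with L5_IT_CTX (97) and Pvalb by itself (88).

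To describe its partners apart from where the type lies, the rate of each other type in its spots was set against the rate in spots of the same cluster that did not hold it, weighted by the clusters of its own spots (the expected rate). Of 34 other types present in at least 20 spots of each section, 4 (11.8%) were at least 1.5-fold above the expected rate over the 4 sections and 15 (44.1%) at least 1.5-fold below. Ratios below 1 were more common, with 23 types against 11 above. The number of other types that a spot keeps was not matched in these ratios. Matched on it, 5 types were at least 1.5-fold above and 13 at least 1.5-fold below. The shares of a spot sum to 1, so types are not independent of each other and no test was made. The number of sections with each direction is given instead.

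Pvalb was the type furthest above its expected rate. It was present in 126 of the 491 control spots holding L5_PT_RSP_ACA, or 25.7% (21.9 to 29.8) where 10.005% was expected. In the resilient section it was in 27.97% (25.1 to 31.0) against 7.26%, in the susceptible in 28.5% (24.8 to 32.5) against 7.33%, and in the ketamine-treated section in 20.7% (17.5 to 24.2) against 6.42%. The ratios were 2.56, 3.85, 3.89 and 3.22, above 1 in 4 of 4 sections. Seen from the interneuron, 31.0% of Pvalb spots held L5_PT_RSP_ACA in the control (26.5 to 35.7), against 58.6% in the resilient (53.8 to 63.3), 56.3% in the susceptible (50.3 to 62.2) and 53.9% in the ketamine-treated section (47.2 to 60.4). The control lay below the other 3, whose intervals overlapped. These rates take no account of where Pvalb lay. Of Pvalb spots, 21.1%, 17.7%, 53.1% and 54.7% were in the cortical clusters, in the order control, resilient, susceptible and ketamine-treated. Of those cortical Pvalb spots, 55.8%, 72.4%, 75.5% and 72.4% held L5_PT_RSP_ACA. In cluster 1, the control interval for Pvalb spots met those of the susceptible and ketamine-treated sections. The part of location in the difference was not tested.

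**Figure D4:**
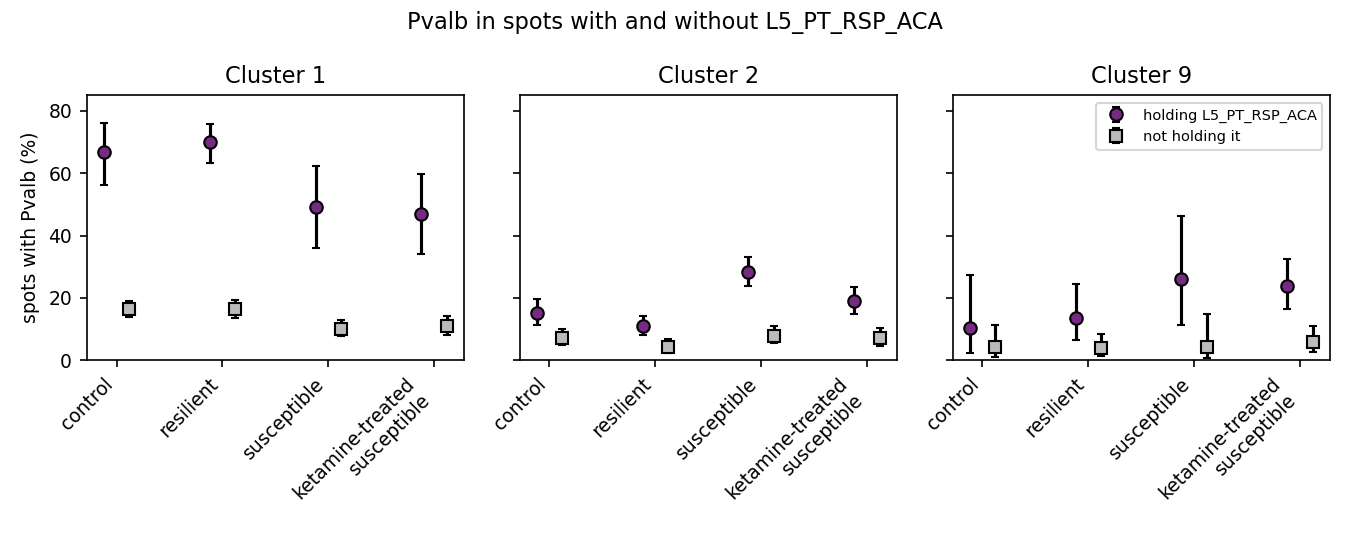
Percentage of spots with Pvalb among spots that hold L5_PT_RSP_ACA (circles) and spots of the same cluster that do not (squares), in clusters 1, 2 and 9 of each section, with exact 95% intervals for counting error. The circle lies above the square in all 12 comparisons; in cluster 1 of the control the values are 66.7% and 16.3%, and in cluster 2 of the control 15.1% and 7.19%.

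Pvalb was above expectation both in the cortical clusters and in cluster 1. In cluster 2, Pvalb was in 15.1% of control spots with L5_PT_RSP_ACA against 7.19% without, in 10.9% against 4.08% in the resilient, in 28.3% against 7.89% in the susceptible and in 18.9% against 7.10% in the ketamine-treated section. In cluster 1 the rates were higher, at 66.7% against 16.3%, 69.9% against 16.3%, 49.2% against 10.1% and 46.8% against 10.9% in the same order. Intervals of spots with and without the type did not overlap in either cluster in any section. They overlapped in cluster 9 in the control, resilient and susceptible sections, where 3, 9 and 7 spots held both. Over the clusters outside 2, 6 and 9 as a whole, Pvalb was seen in 353 spots holding the type where 89.1 were expected, and in the cortical clusters in 306 where 104 were expected.

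In cluster 1, a spot with Pvalb held L5_PT_RSP_ACA in 31.3% of cases in the control (24.9 to 38.3), 58.1% in the resilient (51.8 to 64.1), 35.3% in the susceptible (25.2 to 46.4) and 37.7% in the ketamine-treated section (26.9 to 49.4). Without Pvalb the rates were 4.24% (2.90 to 5.97), 10.4% (8.12 to 13.1), 5.96% (4.09 to 8.36) and 7.78% (5.42 to 10.8). The resilient section was thus highest in cluster 1 both with and without the interneuron. Its interval without Pvalb met that of the susceptible and the ketamine-treated section.

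Other cortical types had lower ratios with Pvalb by the same measure. For L5_IT_CTX, the layer 5 intratelencephalic type, the ratios of observed to expected Pvalb were above 1 in the control (1.66) and resilient section (1.46) and below 1 in the susceptible (0.459) and ketamine-treated section (0.571). For the layer 6 type L6_CT_CTX they lay between 0.259 and 0.319, and for L2_IT_RSP_ACA, the superficial type named for the same areas, between 1.32 and 1.84. The ratio of L5_PT_RSP_ACA was the highest of the 7 cortical types so compared in each section; the difference between types was not tested. In spots holding both, the median share was 26.2%, 25.5%, 31.4% and 28.6% for L5_PT_RSP_ACA and 31.1%, 30.3%, 33.3% and 30.3% for Pvalb, and the pyramidal type was the larger in 28.6%, 32.5%, 41.7% and 37.6% of them.

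Among layer 5 types, L5_IT_CTX was the most frequent partner. It was in 34.6% of control (30.4 to 39.0), 21.9% of resilient (19.2 to 24.7), 23.2% of susceptible (19.7 to 27.0) and 28.97% of ketamine-treated spots holding L5_PT_RSP_ACA (25.4 to 32.8). These were 1.60, 1.63, 1.42 and 2.30 times the expected rates. Almost all of this overlap lay in the cortical clusters, with 661 spots against 8 elsewhere. The balance of the pair differed between sections: in clusters 2, 6 and 9, spots with L5_PT_RSP_ACA were 0.914 times as many as spots with L5_IT_CTX in the control, 1.35 times in the resilient, 1.57 times in the susceptible and 1.63 times in the ketamine-treated section. L5_PT_CTX, the other header naming pyramidal-tract neurons, was kept in 5, 20, 2 and 6 spots, of which 2, 12, 1 and 3 also held L5_PT_RSP_ACA. L5_NP_CTX, the near-projecting type of the layer, was kept in 5, 12, 2 and 5 spots, and L5_IT_TPE_ENT stood at 0.673, 0.688, 0.315 and 0.616 times its expected rate.

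Of the 4 layer 6 types compared, L6_CT_CTX and L6b_CTX were found less often than their clusters would give in each section, and L6_IT_CTX and L6b_CT_ENT went both ways. L6_CT_CTX was in 12.4%, 10.3%, 9.14% and 15.2% of the spots in the order control, resilient, susceptible and ketamine-treated, at 0.555, 0.433, 0.457 and 0.768 times the expected rate. L6b_CTX, the deepest layer type at the white matter border, was further below, at 0.261, 0.285, 0.184 and 0.298 times. The layer in the name did not set the direction, since of the layer 5 types L5_IT_CTX was above, L5_IT_TPE_ENT below and L5_PPP above in 3 of 4 sections (1.35, 1.45, 1.09 and 0.632).

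The remaining types of the same areas and of the upper layers varied between sections. L2_IT_RSP_ACA was below expectation in the control (0.924 times) and resilient section (0.503 times) and above it in the susceptible (1.29 times) and ketamine-treated section (1.05 times), with 347 spots seen and 359 expected in all. L2_IT_RSPv, named for the ventral retrosplenial area, was below in 4 of 4 sections (0.434 to 0.748), and 152 of the 174 spots it shared with L5_PT_RSP_ACA lay outside the cortical clusters. L4_5_IT_TPE_ENT was above expectation in the resilient section (1.16) and below in the others (0.654 to 0.839). L3_RSP_ACA, another type named for the same areas, was seen in 20 shared spots where 65.5 were expected, with ratios of 0.235, 1.02, 0.382 and 0.0801 in the usual order. L2_3_IT_CTX was above 1 in the susceptible section only, L6_IT_CTX in the ketamine-treated section only and L6b_CT_ENT in the resilient and ketamine-treated ones. For L2_3_IT_CTX, L5_PPP, L6_IT_CTX and L6b_CT_ENT the shared spots numbered 50, 24, 72 and 42 where 61.8, 20.1, 84.4 and 56.2 were expected. The near-projecting type NP_SUB, named for the subiculum, was above expectation in the control (1.60), susceptible (1.23) and ketamine-treated section (2.15) and at 0.994 in the resilient one.

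**Figure D5:**
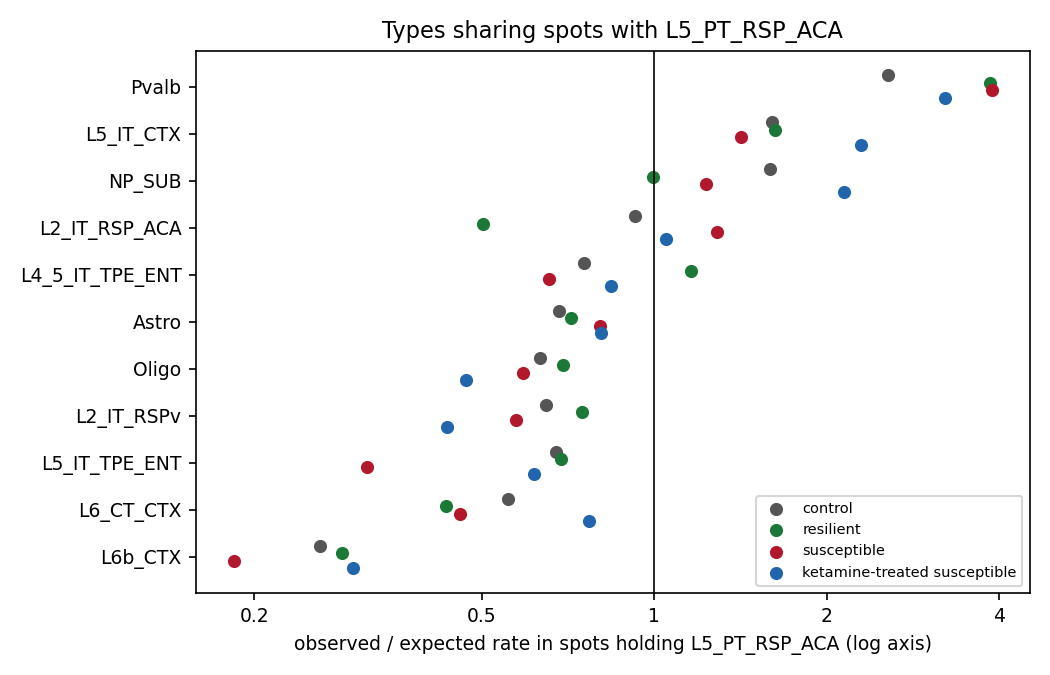
Observed over expected rate of 11 types in spots holding L5_PT_RSP_ACA, on a log axis, with 1 point per section. Pvalb (2.56 to 3.89) and L5_IT_CTX (1.42 to 2.30) lie above 1 in all 4 sections, and Astro, Oligo, L2_IT_RSPv, L5_IT_TPE_ENT, L6_CT_CTX and L6b_CTX lie below 1 in all 4.

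Astrocytes, the oligodendrocyte lineage and 3 types of vessel cells were below expectation in all 4 sections, and microglia were not. Oligo was in 20.2% of control, 20.8% of resilient, 9.87% of susceptible and 8.11% of ketamine-treated spots with the type, at 0.631, 0.693, 0.590 and 0.469 times the expected rate. Astrocytes were at 0.680 to 0.807 times, with a gap that was small in the cortical clusters outside the control. There the ratios were 0.695, 0.949, 0.974 and 0.952 in the usual order, and in the other clusters 0.663, 0.639, 0.542 and 0.509. In cluster 2 alone, astrocytes were above expectation in the resilient (1.17), susceptible (1.05) and ketamine-treated section (1.17) and at 0.736 in the control. Endothelial cells (Endo), pericytes (Peri), oligodendrocyte precursors (OPC) and smooth muscle cells (SMC) were together rare, with 27, 18, 4 and 7 shared spots where 64.1, 38.9, 12.9 and 14.02 were expected. OPC had 0 shared spots in the susceptible and ketamine-treated sections and SMC 0 in the ketamine-treated section. Their direction in single sections thus rests on few spots. Microglia (Micro) were at 0.199 and 0.800 times expectation in the control and resilient sections and at 1.43 and 1.02 times in the susceptible and ketamine-treated ones. VLMC, the fibroblast-like cells of vessels and meninges, were shared in 8 spots (25.5 expected) and were above expectation in the susceptible section (1.15). The chandelier-type interneuron Pvalb_Vipr2 was shared in 8 spots (15.0 expected) and dentate granule neurons (DG) in 1 (18.7 expected). Above expectation in 4 of 4 sections besides Pvalb and L5_IT_CTX, though on few spots, were Ndnf_HPF with 63 spots (33.8 expected), CA1 with 29 (20.5 expected) and V3d with 11 (5.81 expected); none of the 29 spots with CA1 lay in the cortical clusters, and with a share of at least 20% of the spot required of L5_PT_RSP_ACA the ratio of CA1 turned to 0.720 and that of V3d fell to 1.03. Ndnf_HPF is a GABAergic type named for the hippocampal formation, and 61 of its 63 shared spots were outside the cortical clusters.

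The company of the type differed between the cortical clusters and the rest, as did the makeup of all spots. Over all control spots, Pvalb was in 12.2% outside and 7.78% inside, Oligo in 55.2% and 11.6%. Astrocytes were in 52.6% and 35.3%, and L2_IT_RSPv in 17.1% and 4.88%. Over all spots, Oligo, astrocytes and L2_IT_RSPv were more frequent outside in all 4 sections, so such gaps are not particular to the type. In the control, spots of L5_PT_RSP_ACA outside the cortical clusters held Pvalb in 51.3%, Oligo in 47.4%, astrocytes in 39.5% and L2_IT_RSPv in 23.0%, against 14.2%, 7.96%, 22.7% and 2.06% inside. In the resilient section the same 4 types stood at 49.2%, 41.0%, 37.8% and 17.8% outside, and at 10.98%, 4.59%, 14.8% and 0.20% inside. In the susceptible section the values were 31.5%, 19.6%, 25.9% and 15.4% outside and 27.5%, 6.44%, 25.5% and 1.73% inside, and in the ketamine-treated section 24.6%, 14.9%, 26.1% and 17.9% outside and 19.6%, 6.17%, 28.5% and 1.49% inside. Oligo and L2_IT_RSPv were thus more frequent outside in all 4 sections, while for Pvalb and astrocytes the gap was wide in the control and resilient sections and small, or for astrocytes in the ketamine-treated section turned, in the others. These are also the sections with fewer Oligo spots outside the cortical clusters in general (33.9% and 31.9%, against 55.2% in the control and 41.5% in the resilient) and fewer Pvalb spots there (5.43% and 4.49%, against 12.2% and 12.1%). Inside the cortical clusters, Pvalb was in 14.0% of all susceptible and 11.1% of all ketamine-treated spots, against 7.78% in the control and 6.17% in the resilient. Over all spots, Pvalb was thus more frequent inside than outside in the susceptible and ketamine-treated sections, and less frequent in the others. The part of these levels in the difference of partners was not tested.

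The types whose mean shares followed that of L5_PT_RSP_ACA most closely over 61 section-by-cluster groups of at least 20 spots were Pvalb (Spearman correlation 0.54), L6_IT_CTX (0.50), L5_IT_TPE_ENT (0.495), L5_IT_CTX (0.47) and L5_PT_CTX (0.46). By Pearson correlation the order was another, with L6_CT_CTX (0.86, Spearman 0.26), L5_IT_CTX (0.79) and L6b_CTX (0.73) first and Pvalb at 0.21. The groups of 1 section share slide and mouse, and the shares of a group sum to 1, so these values are descriptions.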

How the data were processed

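Polyadenylated RNA was captured on spatially barcoded slides, per the labels' protocols. For each spot the authors deposited its cluster and, for every cell type, a fraction between 0 and 1, printed here as percent. Per the submitters' processing notes the genome build is mm10. How spots were clustered and typed, against which reference and with which threshold, is not given in the sources used here. Cluster numbers (1 to 17) were taken as 1 clustering of all sections. A table of t-SNE coordinates was not used.

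Shares of spots have exact Clopper-Pearson 95% intervals (Python 3.11.15, scipy 1.17.1). Spots are not replicates, so no p-value was computed. Differences were split into cluster proportions and rates within clusters, with clusters under 20 spots counted as proportions. The split and the expected rates were run on simulated spots with the clusters of the control. For the expected rates, the simulated partner had the same base rate in all clusters, and shares did not sum to 1. Those runs could therefore not test the matching by cluster or the dependence between shares. Always named were Astro, Oligo, Pvalb and types named for layers 5 and 6, PT, RSP or ACA found in enough spots; up to 8 partners per direction came from the ratio. The type, these lists and the cluster sets were chosen with earlier results of these data known. Alternatives are given in the closing section.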

Additional observations from a re-analysis of the deposited data

Results flagged for a closer look

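NP_PPP, a near-projecting type, was drawn out because its direction differed between sections by more than 1.5-fold each way. It stood at 3.08 times the expected rate in susceptible spots holding L5_PT_RSP_ACA and at 0.537 times in resilient ones. These rest on 8 and 4 spots, and the difference was not tested.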

How the results depend on the processing

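No paired analysis was possible because each group has 1 section. For the same reason no replicate could be left out. Of 66 recomputed ratios between sections, 56 stayed within the range that the counting intervals of the 2 sections allow; the resilient to control ratio was above 1 in each of the 11 settings tried. It became 1.33 in clusters 2, 6 and 9 only, 1.37 in spots without Oligo and 1.45 without clusters 1, 3, 8 and 11, which are under 1.5-fold. By spots led, susceptible over control became 1.62, ketamine-treated over control 1.56, susceptible over resilient 0.889 and ketamine-treated over susceptible 0.968. In spots keeping exactly 2 types, susceptible over control was 1.44, susceptible over resilient 0.924 and ketamine-treated over susceptible 0.904. In clusters 2, 6 and 9 only, susceptible over resilient was 0.948 and ketamine-treated over resilient 1.01. Leaving out Pvalb spots, or clusters 1, 3, 8 and 11, were settings chosen after seeing the data, and moved none of the ratios beyond that range. The part in clusters 2, 6 and 9 became 76.4% in the control and 61.2% in the resilient section by summed share; 94.9%, 70.7% and 82.4% in the control, resilient and susceptible sections by spots led; and 76.1% and 66.8% in the control and resilient sections in spots keeping exactly 2 types. With a 2-fold mark, 1 partner type was above and 8 below expectation. Matched on the number of other types, the ratio was 3.73 for Pvalb, 2.10 for L5_IT_CTX, 1.17 for L2_IT_RSP_ACA and 1.12 for L4_5_IT_TPE_ENT, the last 2 having been below 1. With a share of at least 20% of the spot, CA1 turned from 1.41 to 0.720 and L5_PPP from 1.19 to 0.814, and in clusters 2, 6 and 9 only CA1 was at 0. By Pearson correlation, 2 of the 5 types most alike stayed among the first 5. The cause of these changes was not tested. No share above 0 and under 10.1% was found, so rates are of spots with a larger share.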
